A study of Homo sapiens with 15 samples.

Results

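HaCaT cells given Li-doped Ag2S NPs at 320 μg/mL were compared with HaCaT cells given the same particle at 160 μg/mL, both for 24 h. The members are 6 of the 15 libraries of the series. Their labels put replicates 13, 14 and 15 at 320 μg/mL and replicates 10, 11 and 12 at 160 μg/mL. No measured value was used to assign a library to a dose, but this comparison was chosen with earlier results of these data known. HaCaT is an immortal human keratinocyte line that arose spontaneously from adult skin, and Ag2S NPs are silver sulfide nanoparticles that emit near-infrared light. The other 9 libraries are 3 of untreated cells (control) and 3 each of cells given undoped Ag2S NPs at 160 or 320 μg/mL, also for 24 h. No group of the 15 received lithium without Ag2S, so an effect of lithium itself cannot be told apart here from an effect of doping the particle. Whether the replicates were separate cultures is stated in neither labels nor methods, so every p-value measures the spread between these libraries, which may be technical. Of the 18179 genes listed in either of the tables that hold these libraries, 17214 are in both, and 11952 of these were tested, their FPKM averaging 1 or more across all 15.

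Several well known transcript programs of keratinocytes are background to the lists below. When amino acids run short or proteins misfold, eIF2α is phosphorylated and the factor ATF4 raises amino acid transporters, biosynthetic enzymes and tRNA synthetases, while electrophiles and metals free NRF2 from KEAP1 and raise antioxidant enzymes. Interferon acts through a complex of STAT proteins and IRF9 on a DNA element in the promoters of antiviral genes. The same cells move between a basal state marked by KRT5, KRT14 and KRT15, a differentiating state marked by KRT1, and a wound state marked by KRT6, KRT16 and KRT17.

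The labelled cell type was seen in the markers. All 9 keratinocyte markers (KRT5, KRT14, KRT17, TP63, SFN, DSP, CDH1, EPCAM and ITGB4) had a mean FPKM of at least 1 at both doses, and their summed FPKM lay between 17023 and 21002 at 160 μg/mL and between 30523 and 38590 at 320 μg/mL. Summed FPKM over 8 fibroblast markers was 2.47 to 4.68 and 3.88 to 7.02, and over the 4 endothelial markers in the tables it was 0.07 to 0.35 and 0.28 to 0.45. Of the 4 immune cell markers in the tables, CD68 held nearly all of the summed 26.1 to 29.6 at 160 μg/mL and 9.78 to 12.1 at 320 μg/mL. CD68 is a lysosomal glycoprotein that other cells also make, and 81.7% of its exon bases are shared with the overlapping gene AC016876.2. The 4 melanocyte markers summed to 3.07 to 3.34 and 2.27 to 3.02.

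The libraries at 160 μg/mL, the lower dose, lay farther from control than replicates 13 and 14 at 320 μg/mL. The median absolute log2 difference from the mean of the control libraries was 0.495, 0.475 and 0.529 in replicates 10, 11 and 12. It was 0.403 and 0.37 in replicates 13 and 14 but 0.553 in replicate 15, which stands apart from them. Replicate 15 had a summed FPKM of 698579 against 631117 and 626624, and the weighted fit gave it a weight of 0.215 against 6.16 and 0.734. Pearson's r of log2(FPKM + 0.1) across genes, which are not independent replicates, lay between 0.939 and 0.951 for pairs of libraries across the doses, and between 0.98 and 0.987 for pairs within either dose. Between the libraries at 160 μg/mL and those of control r was 0.868 to 0.876, below the 0.914 to 0.933 at 320 μg/mL. List counts that moved by over 1.5 times without replicate 15, or without another of the 6 libraries, are given with that value below. No read counts are held in the tables, so the depth of each library is unknown.

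**Figure D1:**
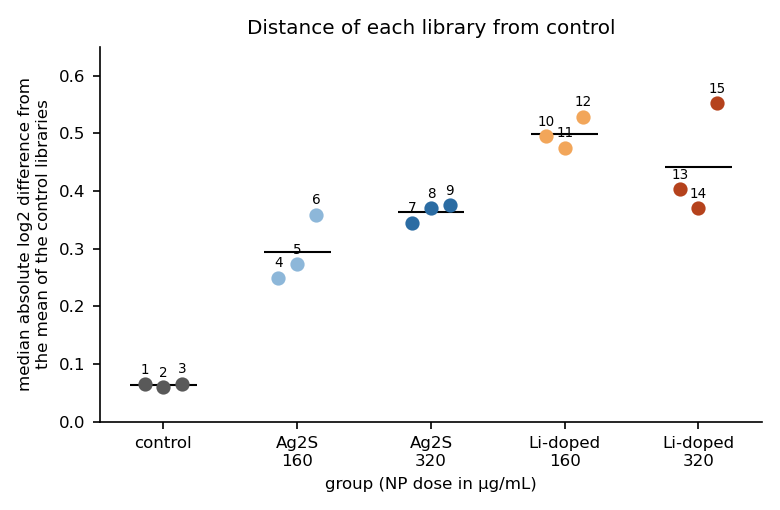
Median absolute difference of log2(FPKM + 0.1) from the mean of the control libraries (vertical axis, log2 units) for each of the 15 libraries, drawn as points with their replicate numbers, with a bar at each group's mean. The 3 libraries given Li-doped Ag2S NPs at 160 μg/mL (0.475 to 0.529) lie above replicates 13 and 14 of the higher dose (0.403 and 0.37), while replicate 15 is at 0.553.

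The higher dose of Li-doped Ag2S NPs moved 5121 of the 11952 genes, or 42.8%, relative to the lower dose, at an adjusted p of 0.05. At 320 μg/mL 2337 genes were higher (19.6%) and 2784 were lower (23.3%), and of these 396 (3.31%) rose and 465 (3.89%) fell by more than 2-fold. The 19.6% and 23.3% are the shares beside which every list count below for this dose difference is to be read. Each test was a moderated test of limma with 2 sides on log2(FPKM + 0.1), over all 15 libraries, adjusted by Benjamini-Hochberg over all genes tested. A log2 difference on that scale, here always 320 minus 160 μg/mL, is smaller than the true log2 ratio where FPKM is low. Between the 2 sets of 3 libraries the FPKM of 5911 genes (49.5%) did not overlap. The median log2 difference of all genes was -0.06. Without replicate 15 the numbers were 2187 higher and 2269 lower, 397 and 392 of them by more than 2-fold, and the median was -0.01. After scaling by median ratio 2704 were higher and 2373 lower, so which direction holds more genes turned with the scaling. In bulk RNA, fewer cells in a state and less RNA per cell cannot be told apart.

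Among the 15 largest rises were genes of differentiated keratinocytes, of the interferon response and of secreted proteins. KRT1, the first keratin of differentiating epidermis (chromosome 12, 52674736 to 52680407, minus strand of GRCh38), had an FPKM of 6.41, 6.92 and 9.22 at 160 and 201, 212 and 204 at 320 μg/mL. This is a 27.3-fold rise in mean FPKM and a log2 difference of 4.77 (SE 0.11, adjusted p = 9.91e-14). The lower dose held it below the control mean of 84.5 and the higher dose above it, with no overlap. CCL2, a chemokine that draws monocytes, read 0.63, 0.6 and 0.66 at 160 and 16.4, 15.9 and 16.9 at 320 μg/mL, a log2 difference of 4.50 (SE 0.09, adjusted p = 2.54e-14). All 6 values lay under the control mean of 73.7. ALDH3A1, an aldehyde dehydrogenase of surface epithelia, read 4.26, 3.66 and 5.19 at 160 and 47.9, 47.8 and 61.7 at 320 μg/mL, a log2 difference of 3.56 (SE 0.12, adjusted p = 1.33e-11), against 59.99 ± 2.09 (SD, n = 3 libraries) in control. The 3 libraries of the higher dose stood near control and those of the lower dose far below it. UCP2, an uncoupling protein of mitochondria, rose from 1.82 ± 0.719 to 19.6 ± 2.84 (SD, n = 3, as for all means below), PROC, which encodes protein C, from 3.5 ± 0.737 to 26.2 ± 4.95, and TNFRSF11B, the decoy receptor osteoprotegerin, from 2.603 ± 0.9304 to 17.5 ± 1.91.

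In all of the 15 but RDH16 and ASPG the 3 libraries at 160 μg/mL lay below the 3 of control. RDH16, a retinol dehydrogenase, had a mean FPKM of 0.86 ± 0.0529 in control, 1.21 ± 0.503 at 160 μg/mL and 10.3 ± 1.31 at 320 μg/mL. AMTN, amelotin, a secreted protein of mineralizing matrix and one of the study's matrix genes, rose from 1.15 ± 0.607 to 7.96 ± 1.598. SLURP2 rose from 0.347 ± 0.118 to 10.6 ± 2.14 and C10orf99, an epithelial antimicrobial peptide gene, from 0.49 ± 0.373 to 6.38 ± 0.767. The asparaginase gene ASPG had 1 library at odds with its group, with 0.35, 0.26 and 0.24 at 160 and 8.52, 0.48 and 8.51 at 320 μg/mL. Its mean of 5.84 ± 4.64 therefore rests on replicates 13 and 15, although the groups do not overlap and the log2 difference was 3.20 (SE 0.90, adjusted p = 0.00953). The other rises (OASL, RSAD2, IFIT3 and IFIT2) are interferon-stimulated genes described below.

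The 15 largest falls were mostly of genes with a control mean FPKM under 1, with UPP1, STC2 and HBEGF above it. In all of them the 3 libraries at 160 μg/mL lay above control. A fall was named only if its mean FPKM at 160 μg/mL was at least 5. For genes with a control mean under 1, a mean above control at 160 μg/mL thus followed from that rule and is no separate result. GDF15 and CDH4 passed the filter on mean FPKM only through the libraries at 160 μg/mL. GDF15, a stress cytokine of the TGF-β superfamily, had an FPKM of 16.4, 10.1 and 10.8 at 160 and 0.09, 0.16 and 0.27 at 320 μg/mL, a log2 difference of -5.54 (SE 0.69, adjusted p = 1.39e-05), and 0.317 in control. SPRR2D and LCE1F, cornified envelope genes of clustered families with near-identical copies, fell in the same way. SPRR2D read 15.6, 12.3 and 11.7 at 160 and 0.31, 0.13 and 0.15 at 320 μg/mL and LCE1F 4.64, 7.13 and 6.07 at 160 and 0, 0.5 and 0 at 320 μg/mL. Both were listed at 0 in the 3 control libraries. UPP1, uridine phosphorylase, was the most abundant of these genes (chromosome 7, 48088628 to 48108733, plus strand). It read 610.4, 494 and 586 at 160 and 40.99, 38.2 and 43.5 at 320 μg/mL, a 13.8-fold fall in mean FPKM and a log2 difference of -3.78 (SE 0.10, adjusted p = 7.09e-13), with 24.7 ± 1.69 in control.

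The other falls included transporters, adhesion molecules and enzymes. The glucose transporter SLC2A3 fell from 13.4 ± 2.02 to 1.03 ± 0.533, the cadherin CDH4 from 10.1 ± 1.21 to 0.513 ± 0.146, the dehydrogenase DHRS2 from 19.7 ± 0.319 to 1.47 ± 0.401, stanniocalcin STC2 from 30.2 ± 6.38 to 2.68 ± 0.955 and the kinesin KIF21B from 9.78 ± 1.02 to 1.003 ± 0.297. Control means of these genes were 0.203, 0.527, 0.457, 3.02 and 0.05. PRR9 fell from 8.22 ± 1.27 to 0.343 ± 0.0115, NEURL1 from 5.19 ± 1.72 to 0.337 ± 0.1102, SH3BGR from 5.03 ± 0.635 to 0.407 ± 0.181 and BSPRY from 5.97 ± 0.829 to 0.617 ± 0.137. RPLP0P2, a pseudogene that can share reads with RPLP0, fell from 19.96 ± 0.864 to 1.07 ± 0.486. The last of the 15 was the growth factor HBEGF.

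**Figure D2:**
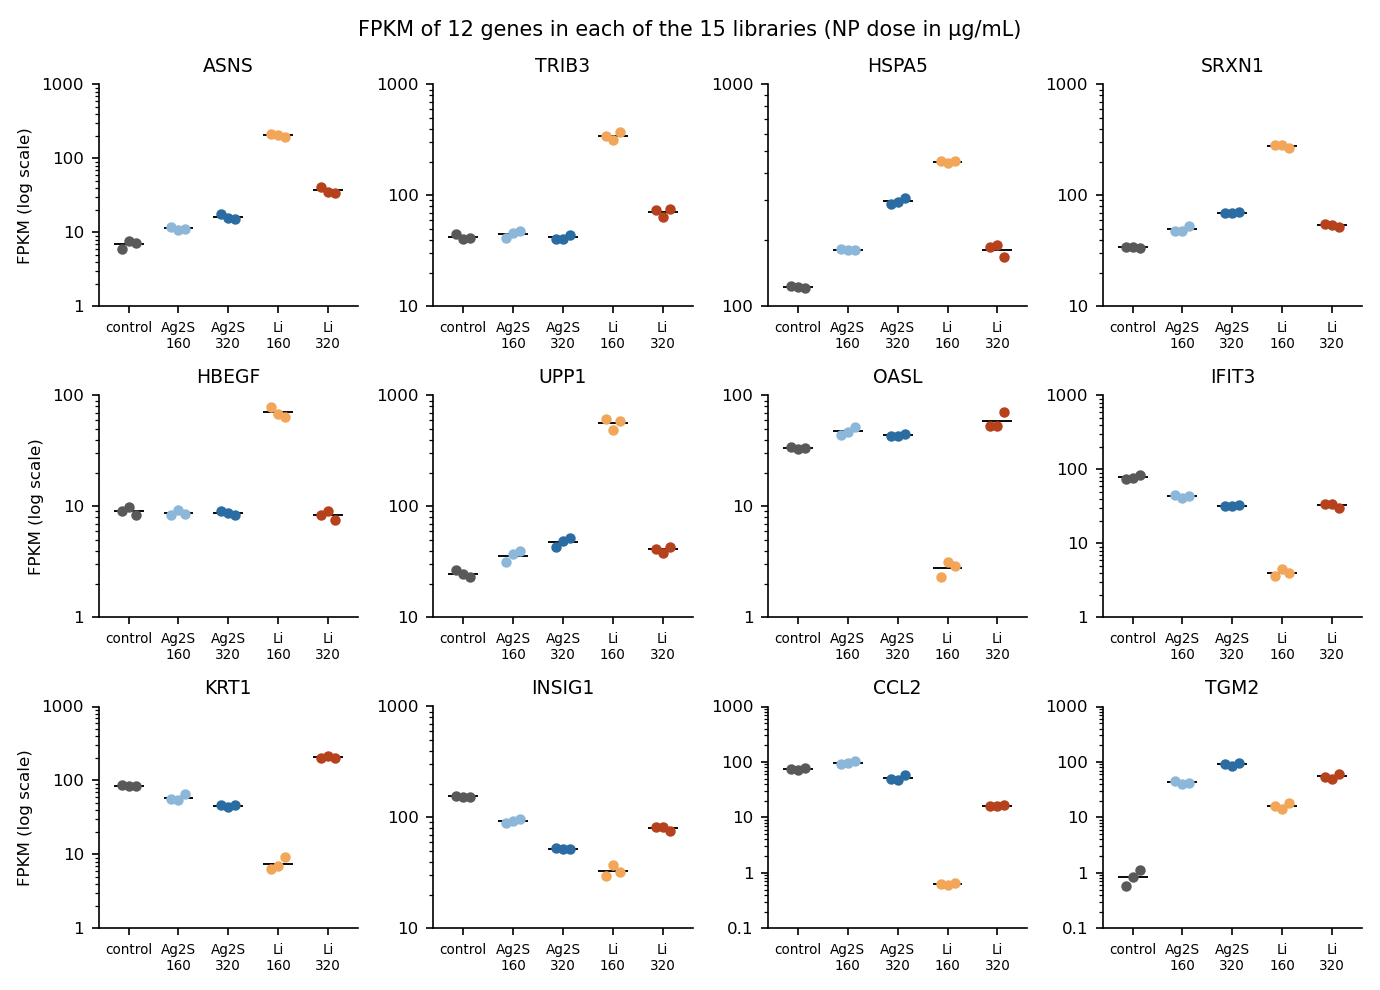
FPKM (vertical axis, log scale, range set per gene) of 12 genes in each of the 15 libraries, with points for libraries, bars for group means and Li for Li-doped Ag2S NPs at the dose in μg/mL. In ASNS, TRIB3, HSPA5, SRXN1, HBEGF and UPP1 the 3 libraries at 160 μg/mL are the highest of the 15; in OASL, IFIT3, KRT1, INSIG1 and CCL2 they are the lowest, and TGM2 is lowest in control.

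ATF4 targets were lower at 320 μg/mL. Of 34 tested, 28 fell and 4 rose, against the 23.3% lower and 19.6% higher of all genes, and their median log2 difference was -1.44. Without replicate 10 or 11 the number that rose was 2. ASNS, asparagine synthetase (chromosome 7, 97852118 to 97872542, minus strand), read 213, 209.6 and 197 at 160 and 41.3, 35.4 and 34.4 at 320 μg/mL. The log2 difference was -2.48 (SE 0.10, adjusted p = 9.50e-11) and the control mean 6.96 ± 0.8903, and the higher dose lay above control. TRIB3, a pseudokinase that restrains ATF4, read 341, 313 and 369.6 at 160 and 74.02, 63.4 and 75.2 at 320 μg/mL, and DDIT3, the factor CHOP, 179, 177 and 144 at 160 and 31.9, 31.7 and 30.2 at 320 μg/mL. Their log2 differences were -2.27 (SE 0.09, adjusted p = 3.43e-11) and -2.40 (SE 0.10, adjusted p = 6.67e-11). At the higher dose DDIT3 overlapped control (31.3 ± 0.932 against 32.6 ± 2.14), and 27.2% of its exon bases overlap other genes (MARS and MBD6), from which reads cannot be separated without strand. SLC7A5, the light chain of the leucine transporter LAT1, read 1297, 1238 and 1468 at 160 and 432, 414 and 407 at 320 μg/mL, a log2 difference of -1.67 (SE 0.06, adjusted p = 3.75e-11). CHAC1, which breaks down glutathione, fell from 65.4 ± 3.11 to 8.85 ± 1.74, and ATF4 itself from 567 ± 20.2 to 386 ± 42. ATF5, a factor related to ATF4, was among the 4 that rose (1.07 on the log2 scale, from 9.94 ± 1.04 to 20.9 ± 0.5001), with a control mean of 43.8.

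Promoters of this list were searched for TGATGNAA, the core of the C/EBP-ATF element that ATF4 binds as a dimer with C/EBP proteins, on both strands of the 250 bases before each RefSeq start (GRCh38.p14). It was found in 5 of the 27 list genes with a promoter entry (18.5%) and in 2.24% of the 9257 tested genes with one. Those of ASNS and CHAC1, whose values are given above, are shown because they carry the motif, and no binding was measured. Each is printed 5′ to 3′ along the gene with 30 flanking bases on either side and the motif in capitals, which in CHAC1 is its reverse complement. The ASNS stretch is chr7:97872439-97872506, minus strand, and its motif ends 60 bases before the start. That of CHAC1 is chr15:40953232-40953299, plus strand, with the motif ending 201 bases before the start.
ASNS: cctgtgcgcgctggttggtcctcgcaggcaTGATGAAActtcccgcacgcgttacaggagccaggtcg
CHAC1: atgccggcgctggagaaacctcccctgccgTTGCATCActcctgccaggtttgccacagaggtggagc

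Cytosolic tRNA synthetases and genes of the unfolded protein response fell as well. Of 20 synthetases tested 15 fell and 1 rose, with a median log2 difference of -0.96. AARS, for alanine, read 339.9, 349.8 and 367 at 160 and 113, 105 and 99.2 at 320 μg/mL (-1.74 on the log2 scale), and GARS, for glycine, fell from 238 ± 14.9 to 75.3 ± 5.54. Of 23 genes of the unfolded protein response 19 fell and 1 rose, or 0 without replicate 10 or 13, with a median of -0.70. HSPA5, the endoplasmic reticulum chaperone BiP, read 453, 441 and 452 at 160 and 185, 189 and 166 at 320 μg/mL, a log2 difference of -1.32 (SE 0.06, adjusted p = 1.71e-10), against 122 ± 1.26 in control. ERN1, the stress sensor IRE1, fell from 9.58 ± 0.932 to 2.27 ± 0.368, its target XBP1 from 128 ± 3.29 to 63.2 ± 1.62 and the co-chaperone DNAJB9 from 18.5 ± 1.23 to 6.37 ± 0.625. The higher dose put ERN1 below its control of 3.08 ± 0.165, let DNAJB9 overlap one of 6.55 ± 0.446 and left XBP1 above one of 26.6 ± 1.84.

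Ribosome biogenesis genes, which process and assemble ribosomal RNA, fell in 26 of 29 with none rising (median -0.65). The nucleolar protein gene GNL3 fell from 29.5 ± 1.06 to 10.4 ± 0.571 and NOP58, of the small nucleolar RNA particles, from 49.5 ± 1.87 to 21.2 ± 1.46. Both ended below control, at 15.3 ± 2.17 and 28.2 ± 0.857. Of the cytosolic ribosomal proteins 3 of 75 rose and 2 fell, with a median of 0.08, and without replicate 15 1 rose and 5 fell. Without replicate 12 these were 1 and 7, without replicate 13 they were 5 and 1, and without replicate 10, 11 or 14 the number that fell was 1.

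NRF2 targets were lower in 20 and higher in 7 of 34, with a median log2 difference of -0.55. SRXN1, sulfiredoxin, which repairs oxidized peroxiredoxins, read 285, 284 and 266 at 160 and 55.2, 54.2 and 51.6 at 320 μg/mL, a log2 difference of -2.37 (SE 0.06, adjusted p = 3.07e-13), with 33.97 ± 0.632 in control. TXNRD1, thioredoxin reductase, fell from 88.97 ± 7.94 to 23.6 ± 2.22 and OSGIN1 from 30.9 ± 1.92 to 8.11 ± 0.507. The higher dose put TXNRD1 below its control of 36.3 ± 3.38. NQO1, a quinone reductase, fell from 515 ± 12.4 to 285 ± 16.7 and lay above a control of 115 ± 2.81. FTH1 and FTL, the ferritin chains that store iron, fell from 18906 ± 701 to 11501 ± 874 and from 4328 ± 185 to 2396 ± 384, and FTH1 had the highest FPKM of any gene in the 3 libraries at 160 μg/mL. Of the FTH1 exon bases 62.4% overlap BEST1 on the other strand. TKT, transketolase, went the other way, from 739 ± 79.1 to 1403 ± 205.

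Metallothioneins bind zinc, copper and silver. Of the 11 tested genes of the list of metallothioneins and zinc transport 2 rose and 3 fell, and without replicate 12 or 15 the number that rose was 1. MT1X read 241, 224 and 203 at 160 and 303, 303 and 342 at 320 μg/mL, a log2 difference of 0.50 (SE 0.08, adjusted p = 1.95e-04), and all 6 values were below its control mean of 360.4. MT2A read 1267, 1080.4 and 844 at 160 and 893, 849.9 and 906 at 320 μg/mL, a log2 difference of -0.25 (SE 0.11, adjusted p = 0.089), and the groups overlapped. Without replicate 12 it was -0.41 (adjusted p = 0.00253 in limma). MT1G read 2.9, 2.36 and 4.53 at 160 and 0.42, 1.13 and 3.8 at 320 μg/mL, a log2 difference of -1.26 (SE 1.04, adjusted p = 0.351), again with overlap. The zinc importer SLC39A14 fell from 70.2 ± 2.02 to 43.5 ± 3.39 and the metal-sensing factor MTF1 from 5.43 ± 0.14 to 3.29 ± 0.669.

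Glycolysis and hypoxia genes fell in 21 and rose in 3 of 32 (median -0.49). EGLN3, a prolyl hydroxylase of HIF, read 14.9, 17.7 and 15.6 at 160 and 2.12, 3.07 and 2.66 at 320 μg/mL, a log2 difference of -2.58 (SE 0.19, adjusted p = 4.60e-08), and control was at 2.69 ± 0.332. NDRG1 fell from 975 ± 40.2 to 439 ± 9.85 and the phosphofructokinase PFKP from 127 ± 4.16 to 62.2 ± 3.4. In contrast, nuclear genes of the respiratory chain rose in 28 of 38 with none falling (median 0.41). NDUFB5, a subunit of complex I, rose from 79.4 ± 3.38 to 119 ± 4.22 and at both doses lay below its control level of 169.6 ± 9.22. Heat shock proteins fell in 11 and rose in 2 of 20. HSPA8, the constitutive HSC70, fell from 864 ± 24.7 to 437 ± 22.1, whereas HSPB1, the small heat shock protein HSP27, rose from 1159.7 ± 73.9 to 3057 ± 455.

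EGFR ligands were mostly lower. Of 9 ligands and receptors tested 6 fell and 2 rose, and the median log2 difference was -1.40. HBEGF (chromosome 5, 140332843 to 140346631, minus strand) read 78.9, 67.8 and 64.4 at 160 and 8.36, 9 and 7.58 at 320 μg/mL, a log2 difference of -3.06 (SE 0.10, adjusted p = 8.11e-12). The higher dose overlapped control, whose mean was 9.103 ± 0.719. AREG, amphiregulin, read 201, 173 and 143 at 160 and 39.7, 35.6 and 33.9 at 320 μg/mL, a log2 difference of -2.23 (SE 0.12, adjusted p = 2.00e-09), against 4.31 ± 0.391 in control. TGFA fell from 22.7 ± 1.504 to 7.63 ± 0.806, the ERBB3 ligand NRG1 from 92.96 ± 7.18 to 35.2 ± 3.23 and the receptor EGFR from 243 ± 11.1 to 120.0 ± 22.2. ERBB3 was 1 of the 2 that rose, from 10.2 ± 0.915 to 14.1 ± 0.923.

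AP-1 and immediate early genes, many of them switched on by ERK downstream of EGFR, fell in 17 of 23 with none rising (median -0.81), and 1 rose without replicate 12 or 14. FOSL1, the AP-1 subunit FRA1, read 87.1, 70.5 and 68.4 at 160 and 15.1, 14.7 and 14.2 at 320 μg/mL, a log2 difference of -2.34 (SE 0.11, adjusted p = 2.29e-10), with 13.2 ± 0.853 in control. PHLDA1 fell from 47.5 ± 1.53 to 8.87 ± 1.33, the ERK phosphatase DUSP6 from 96.8 ± 9.67 to 29.4 ± 1.08 and MYC from 113 ± 10.8 to 33.3 ± 2.65. At the higher dose DUSP6 and MYC overlapped control, whose means were 28.4 ± 3.01 and 39.1 ± 2.53. JUNB read 201, 158 and 202 at 160 and 232, 209.6 and 252 at 320 μg/mL and did not pass the test, with a log2 difference of 0.31 (SE 0.13, adjusted p = 0.0591). YAP targets, tested as 15 genes, fell in 7 and rose in 2, and without any 1 of the 6 libraries 0 or 1 rose.

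Cytokine, chemokine and NF-kB genes fell in 9 and rose in 3 of 22. IL1A read 50.3, 49.7 and 40.9 at 160 and 10.1, 8.34 and 7.42 at 320 μg/mL and IL1B 51.9, 57.1 and 48.4 at 160 and 11.4, 9.84 and 7.95 at 320 μg/mL, with log2 differences of -2.44 (SE 0.13, adjusted p = 1.42e-09) and -2.43 (SE 0.13, adjusted p = 2.11e-09). Control means of these alarm cytokines were 1.15 ± 0.0451 and 3.09 ± 0.4398, under all 6 values of each. LCN2, the iron-sequestering lipocalin, read 958, 801 and 833 at 160 and 209, 192 and 215 at 320 μg/mL, a log2 difference of -2.07 (SE 0.09, adjusted p = 1.78e-10), and control, at 767 ± 6.31, lay between the doses. CXCL8, the neutrophil chemokine, fell from 10.3 ± 0.719 to 1.63 ± 0.715. CCL2, described above, was 1 of the 3 that rose.

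Among p53 targets 11 fell (52.4%) and 5 rose (23.8%) of 21 tested, against 23.3% lower and 19.6% higher of all genes. HaCaT cells carry mutant p53. GADD45A fell from 39.3 ± 7.67 to 15.9 ± 0.607 and CDKN1A, the cyclin kinase inhibitor p21, from 357 ± 16.9 to 257 ± 23.2, while TP53I3 rose from 2.31 ± 0.4903 to 6.45 ± 1.53. Of 20 apoptosis and death receptor genes 3 rose (15%) and 7 fell (35%), and after scaling by median ratio 5 did either way. TNFSF10, the death ligand TRAIL, read 13.6, 17.6 and 14.9 at 160 and 45.2, 48.6 and 42.7 at 320 μg/mL (1.57 on the log2 scale), all far below a control of 335 ± 5.83. BMF, a BH3-only promoter of cell death, rose from 11.7 ± 1.36 to 38.96 ± 3.69, and the inhibitor of apoptosis BIRC3 fell from 12.3 ± 1.19 to 2.56 ± 0.728.

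Interferon-stimulated genes rose. Of 55 tested, 45 were higher at 320 μg/mL and 1 was lower, against 19.6% and 23.3% of all genes, with a median log2 difference of 0.80. OASL, which enhances sensing of viral RNA (chromosome 12, 121019111 to 121039242, minus strand), read 2.29, 3.14 and 2.91 at 160 and 53.2, 52.8 and 70.6 at 320 μg/mL. That is a 21.2-fold rise in mean FPKM and a log2 difference of 4.35 (SE 0.12, adjusted p = 7.09e-13), with 33.6 ± 0.495 in control. IFIT3, of the family that binds foreign RNA, read 3.58, 4.47 and 3.95 at 160 and 33.6, 34.6 and 30.5 at 320 μg/mL, a log2 difference of 3.01 (SE 0.09, adjusted p = 8.16e-13), and control stood at 78.5 ± 4.296. RSAD2, the antiviral enzyme viperin, read 1.45, 2.54 and 2.55 at 160 and 23.99, 24.5 and 20.01 at 320 μg/mL, a log2 difference of 3.37 (SE 0.17, adjusted p = 8.95e-10). IFIT2 and IFIT1 rose from 3.41 ± 0.464 to 22.9 ± 2.79 and from 5.52 ± 1.17 to 29.3 ± 2.38. For all 5 genes the libraries at 160 μg/mL were the low ones: the higher dose stood above control for OASL and RSAD2 (control 18.7 ± 1.56) and below control for the 3 IFIT genes. Without replicate 15, 42 of the list rose and 1 fell.

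The core of the interferon-stimulated response element, GAAA and GAAA with any 2 bases between, was searched for in the same way. It stood in the 250 bases before a RefSeq start of 26 of the 41 list genes with an entry (63.4%) and of 3.27% of the tested genes with one. The promoters of IFIT1, IFIT3 and RSAD2 are shown because they hold it and their values are given above. All 3 hold the reverse complement, in capitals, on the strand of the gene. The printed stretch of IFIT1 holds a further match in lower case before the capitals. The stretches are chr10:89392490-89392559, plus strand, chr10:89327845-89327914, plus strand and chr2:6877602-6877671, plus strand, with the motif ending 93, 112 and 135 bases before the start.
IFIT1: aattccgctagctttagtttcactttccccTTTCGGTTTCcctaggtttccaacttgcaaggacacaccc
IFIT3: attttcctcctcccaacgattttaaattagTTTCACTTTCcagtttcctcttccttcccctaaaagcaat
RSAD2: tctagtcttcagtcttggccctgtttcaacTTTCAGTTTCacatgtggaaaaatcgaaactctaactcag

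Antigen presentation genes rose in 17 of 22 and fell in none (median 0.59), or in 1 without replicate 12. HLA-DRA, a chain of MHC class II, read 12.02, 13.7 and 15.1 at 160 and 37.3, 36.7 and 39.1 at 320 μg/mL, a log2 difference of 1.47 (SE 0.10, adjusted p = 2.03e-08), and its 3 values at the higher dose were near the control of 39.1 ± 2.34. CD74, the invariant chain, rose from 25.9 ± 3.56 to 54.6 ± 2.43 and PSMB8, of the immunoproteasome, from 36.6 ± 2.28 to 79.3 ± 9.37. Of the 31 subunits of the constitutive proteasome 11 rose and 4 fell, and without replicate 10 or 14 the number that fell was 2.

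Cholesterol synthesis and uptake genes, targets of SREBP2, rose in 18 of 26 and fell in none (median 0.54). Without replicate 12 the number that fell was 1, and without replicate 13 it was 2. INSIG1, which holds back SREBP, read 29.5, 37.1 and 32.3 at 160 and 81.7, 81.5 and 75.6 at 320 μg/mL, a log2 difference of 1.27 (SE 0.07, adjusted p = 3.81e-09). The doses did not overlap and control was higher than both at 155 ± 0.998. MVK, mevalonate kinase, rose from 18.7 ± 1.703 to 41.9 ± 2.59, also below a control of 74.4 ± 2.46. Fatty acid synthesis genes were split, 8 higher and 5 lower of 19. SCD, the stearoyl-CoA desaturase, read 241, 286 and 283 at 160 and 1079, 1143 and 931 at 320 μg/mL, a log2 difference of 1.96 (SE 0.09, adjusted p = 2.39e-10), and control 1689 ± 21.8. SREBF1 rose from 70.2 ± 3.17 to 221 ± 15.9 and FASN, fatty acid synthase, from 31.7 ± 9.12 to 92.6 ± 3.86. The desaturase family member FADS3 fell, from 177 ± 21.2 to 80.6 ± 4.51, from above its control of 36.9 ± 1.29.

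Keratins of the basal layer and of differentiating cells both rose. KRT15, a basal keratin, read 264, 319.7 and 244 at 160 and 1491, 1380 and 1792 at 320 μg/mL, a log2 difference of 2.49 (SE 0.11, adjusted p = 1.71e-10), all below a control of 3035 ± 117. KRT5 read 2880.2, 3114 and 3591 at 160 and 9403, 9297 and 10284 at 320 μg/mL, a log2 difference of 1.60 (SE 0.09, adjusted p = 2.72e-09), with the higher dose above and the lower dose under a control of 4128 ± 96.1. Its partner KRT14, which shares reads with near-identical copies as KRT16 and KRT17 do, rose from 5167 ± 647 to 11877 ± 1939. KRT17, a keratin of wounded skin, read 6921, 7100.0 and 8693 at 160 and 7844, 7312 and 10544 at 320 μg/mL and did not pass the test, with a log2 difference of 0.17 (SE 0.13, adjusted p = 0.306). Both doses lay above 587 ± 24.7 in control. KRT16 rose from 261 ± 59.2 to 470.0 ± 72.8. Of the basal list 7 genes rose and 2 fell of 15, of the differentiation list 8 rose and 3 fell of 16, and of the activated list 8 rose and 4 fell of 17. KRT13 and KRT4, keratins of inner stratified epithelia, rose from 22.8 ± 2.93 to 85.1 ± 1.16 and from 3.297 ± 0.0351 to 7.15 ± 0.599, both well below control at 608 ± 30.97 and 43.1 ± 1.44. The protease inhibitor SPINK5 rose from 2.11 ± 0.475 to 6.78 ± 0.989, the cornified envelope precursor SPRR1B from 98.4 ± 6.61 to 229 ± 22.1 and the calprotectin subunit S100A8 from 12.2 ± 2.798 to 52.5 ± 6.46. ODC1, ornithine decarboxylase, which makes polyamines, fell in the activated list, 379.7, 366 and 373 at 160 and 95.5, 91.3 and 87.7 at 320 μg/mL, a log2 difference of -2.03 (SE 0.07, adjusted p = 1.33e-11), with 7.64 ± 0.544 in control.

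Junction genes were mixed, with 13 higher and 7 lower of 24. The claudin CLDN7 fell from 285 ± 17.1 to 118 ± 12.4 and occludin OCLN from 6.803 ± 0.774 to 2.403 ± 0.454, while the desmosomal plakophilin PKP1 rose from 317 ± 21.4 to 588 ± 38.2. The list for epithelial-mesenchymal transition had 7 lower and none higher of 10, of which CLDN7, CLDN4, OCLN, EPCAM, ESRP1 and CDH1 are epithelial genes and CDH2, N-cadherin, is mesenchymal. Of 18 integrin and hemidesmosome genes 6 rose and 5 fell, with ITGB6, of the integrin that activates TGF-β, going from 18.5 ± 0.633 to 50.1 ± 7.19.

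The matrix and TGF-β genes that the study centred on went in both directions. TGFB1 read 76.97, 64.05 and 85.7 at 160 and 68.1, 57.5 and 67.2 at 320 μg/mL, a log2 difference of -0.23 (SE 0.10, adjusted p = 0.0856), and the groups overlapped. Without replicate 11 the adjusted p was 0.0129. Both doses lay above its control of 24.2 ± 1.39. TIMP1, an inhibitor of metalloproteinases, read 322, 307 and 332 at 160 and 171, 149 and 191 at 320 μg/mL, a log2 difference of -0.92 (SE 0.09, adjusted p = 1.55e-06), and was thus lower at the higher dose, still above 66.7 ± 5.302 in control. COL1A1, the α1 chain of type I collagen (chromosome 17, 50183289 to 50201632, minus strand), read 17.3, 21.04 and 20.6 at 160 and 34.6, 40.2 and 33.1 at 320 μg/mL, a log2 difference of 0.87 (SE 0.13, adjusted p = 9.14e-05). TGM2, tissue transglutaminase, read 15.99, 14.3 and 18.2 at 160 and 54.3, 49.4 and 61.3 at 320 μg/mL, a log2 difference of 1.76 (SE 0.16, adjusted p = 4.99e-07), with 0.843 ± 0.265 in control. For both COL1A1 and TGM2 the order was control, 160 and 320 μg/mL from low to high, with no overlap.

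Of the 18 tested matrix genes that the study had chosen on these samples, 6 rose and 6 fell, and being so chosen the list is not independent evidence of a direction. LAMA3, a laminin chain of the epidermal basement membrane, read 709, 678 and 660.3 at 160 and 258, 264 and 208 at 320 μg/mL, a log2 difference of -1.49 (SE 0.08, adjusted p = 2.48e-09). Tenascin TNC fell from 62.7 ± 3.88 to 33.2 ± 2.56 and fibronectin FN1 from 229 ± 19.3 to 159.8 ± 22.8. TGFBI, a matrix protein raised by TGF-β, rose from 808 ± 59.9 to 1647 ± 5.97. Their control means were 59.9 ± 1.65, 1.73 ± 0.694, 33.1 ± 1.17 and 564 ± 3.64, under all values of both doses. The nineteenth gene, COL8A2, was below the filter, with 1, 1.55 and 1.45 at 160 and 0.74, 0.98 and 0.85 at 320 μg/mL. Collagen chains rose in 10 of 15 and fell in none, with a median of 0.48, among them COL4A2 of basement membranes from 39.9 ± 4.68 to 60.8 ± 3.01.

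TGF-β targets were split, with 9 higher and 12 lower of 30 and a median of -0.04. The protease inhibitor SERPINE2 fell from 422 ± 9.77 to 251 ± 7.61 and the growth factor binding protein IGFBP3 from 269.9 ± 15.03 to 92.2 ± 5.09. Of 17 ligands, receptors and SMADs 1 rose and 5 fell, and without replicate 15 3 did either way. Of 17 metalloproteinases and inhibitors 7 rose and 5 fell: the collagenase MMP13 read 54.7, 55.8 and 51.4 at 160 and 226, 247 and 251 at 320 μg/mL, a log2 difference of 2.16 (SE 0.06, adjusted p = 7.59e-13), all below 401 ± 14.99 in control, and TIMP3 fell from 54.5 ± 1.803 to 25.6 ± 2.13. ID3, a BMP target, rose from 26.3 ± 3.27 to 99.01 ± 13.3, far below its control of 381 ± 16.2, whereas ID1 read 52.5, 33.2 and 39.7 at 160 and 43.98, 42.4 and 57.4 at 320 μg/mL with overlapping groups, a log2 difference of 0.21 (SE 0.15, adjusted p = 0.284). HEY1, also a Notch target, fell from 6.65 ± 0.182 to 2.27 ± 0.293.

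Genes of cell division rose. Replication-dependent histones rose in 15 of 22 and fell in none, with a median log2 difference of 0.94, DNA replication genes in 20 of 38 with 1 falling, or 0 without replicate 10, 11, 13 or 15 (median 0.42), and mitosis genes in 19 of 39 with none falling (median 0.31). HIST1H2BD read 7.78, 10.7 and 6.84 at 160 and 25.3, 31.1 and 38.1 at 320 μg/mL, a log2 difference of 1.90 (SE 0.17, adjusted p = 4.09e-07), and HIST1H1C rose from 24.3 ± 1.51 to 69.7 ± 14.1. Histone genes have near-identical copies that can share reads. MCM5, of the replicative helicase, read 4.05, 5.14 and 5.76 at 160 and 15.99, 13.2 and 16.7 at 320 μg/mL, a log2 difference of 1.61 (SE 0.13, adjusted p = 1.49e-07), against 34.3 ± 2.61 in control. TK1, thymidine kinase, rose from 37.3 ± 5.04 to 81.3 ± 12.04 and RRM1, of ribonucleotide reductase, from 15.5 ± 0.792 to 26.9 ± 0.718. CCNB2, cyclin B2, rose from 20.6 ± 1.07 to 30.5 ± 0.103, the kinase AURKB from 21.7 ± 1.19 to 33.01 ± 1.82 and the phosphatase CDC25B from 132 ± 2.81 to 180.1 ± 1.26. Control means were 80.5 ± 3.02, 70.4 ± 2.49 and 113 ± 4.34, and CDC25B was above control and the others below it at both doses. Without replicate 15 histones rose in 11 and mitosis genes in 24.

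Several smaller groups had members on either side, where 19.6% of all genes were higher and 23.3% lower. Wnt feedback targets, of interest because lithium inhibits GSK3, had 4 higher (36.4%) and 2 lower (18.2%) of 11. Any part of lithium in this split was not tested. APCDD1, a Wnt inhibitor, read 4.1, 4.99 and 3.77 at 160 and 24.3, 24.2 and 35.1 at 320 μg/mL, a log2 difference of 2.66 (SE 0.20, adjusted p = 6.08e-08), and DKK1, another, fell from 25.7 ± 5.12 to 9.88 ± 0.977. Retinoid genes rose in 6 and fell in 3 of 13, or in 1 without replicate 15, with ALDH1A1, which makes retinoic acid, going from 0.553 ± 0.153 to 4.18 ± 0.384. Aryl hydrocarbon receptor targets fell in 5 and rose in 1 of 7, and 3 fell without replicate 15. CYP1A1 fell from 3.74 ± 0.569 to 1.33 ± 0.541, and the 1 riser was ALDH3A1. Lysosome genes were 12 higher and 11 lower of 35, actin cytoskeleton genes 4 and 10 of 27, and the Notch list 4 and 2 of 12, or 4 and 1 without replicate 15. Of 15 housekeeping genes 5 rose and 5 fell, ACTB from 2340.4 ± 46.6 to 1667 ± 31.04 and PGK1 from 295 ± 4.83 to 192 ± 2.97.

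**Figure D3:**
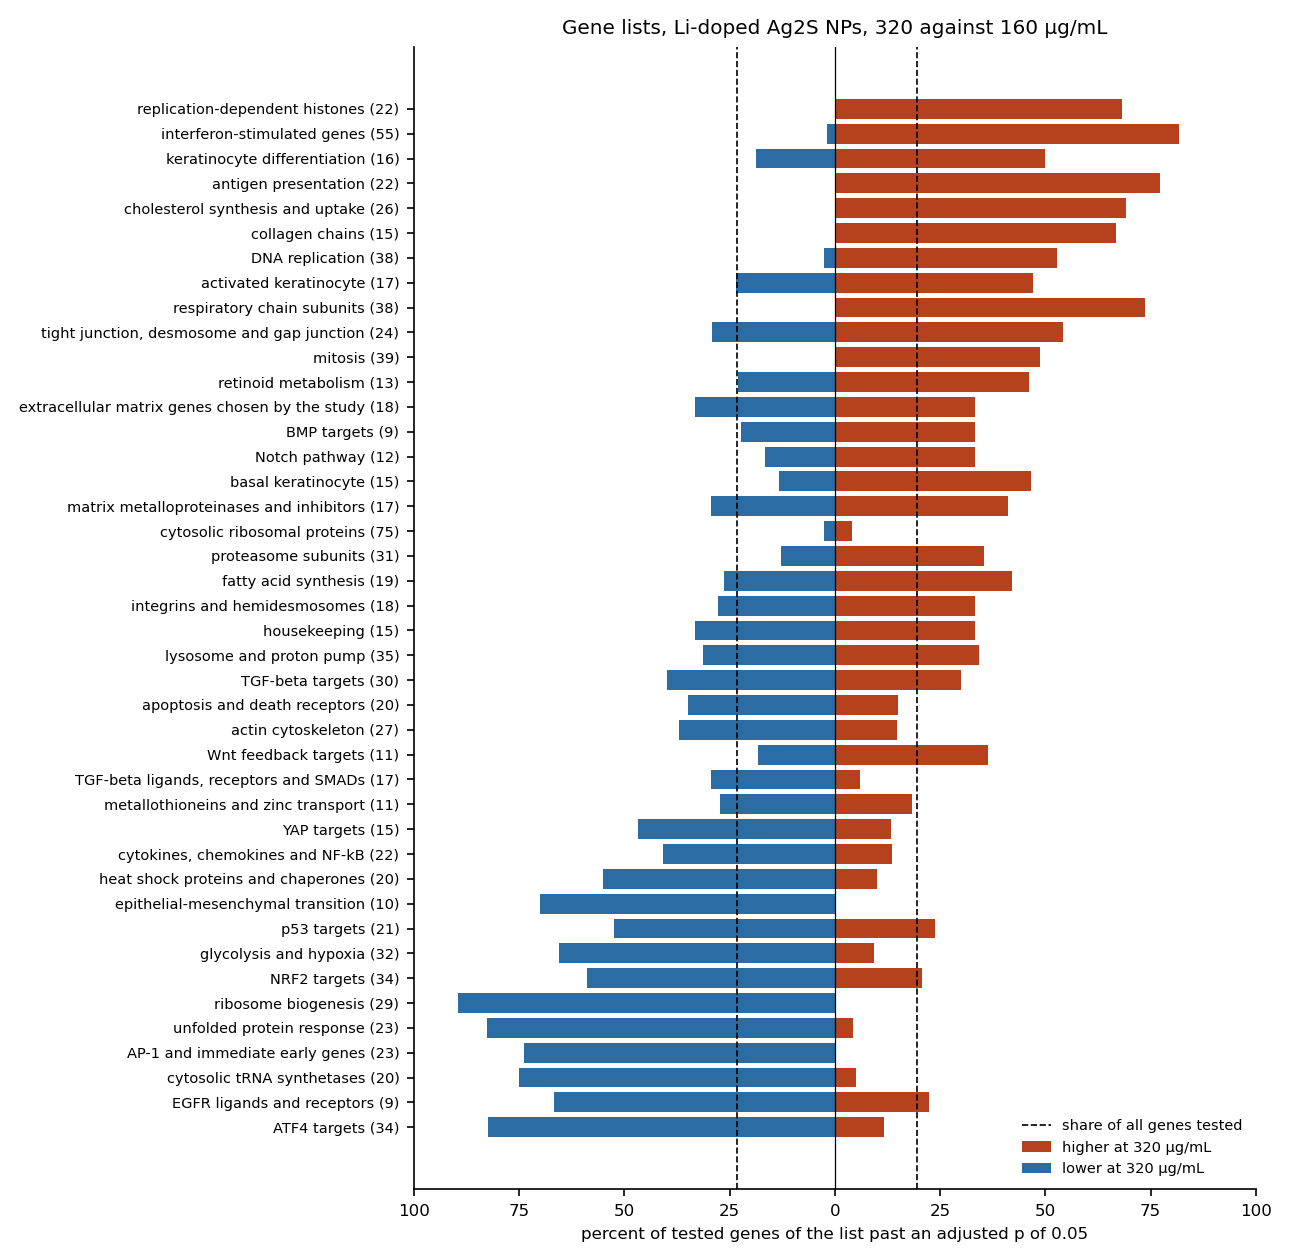
Percent of the tested genes of each list (number in brackets, lists with at least 9) that were higher (right) or lower (left) at 320 than at 160 μg/mL of Li-doped Ag2S NPs at an adjusted p of 0.05, with dashed lines at the shares of all genes (19.6% and 23.3%). Interferon-stimulated genes had 45 of 55 higher and ribosome biogenesis had 26 of 29 lower.

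Other properties moved with the dose as well. When genes were cut by summed exon length into 3 sets of near equal size, the longest set had a median log2 difference of -0.14 and the shortest 0.06, and without replicate 15 these were -0.05 and 0.05. The part of length in the results was not tested. The fibroblast marker DCN read 0, 0 and 0.22 at 160 and 3.34, 0.42 and 0.95 at 320 μg/mL, against 7.08 ± 1.74 in control. LUM, another, read 0, 0.12 and 0 at 160 and 0.35, 0.11 and 0.4 at 320 μg/mL, against 5.19 ± 0.756, and its groups overlapped. The other fibroblast markers did not share a direction. By mean FPKM TWIST2 went from 2.9 to 2.8, PDGFRB from 0.417 to 0.133, FAP from 0.153 to 0.127 and COL6A3 from 0.0967 to 0. PDGFRA went from 0.00333 to 0.0533 and COL3A1 from 0 to 0.02. CD68 fell from 26.6 ± 1.31 to 10.1 ± 1.03.

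The dose effect was then set beside that of undoped Ag2S NPs, whose 6 libraries are other libraries. Undoped Ag2S NPs changed 1497 genes (12.5%) between the doses, 579 higher (4.84%) and 918 lower (7.68%) at 320 μg/mL. The difference between the dose effects was past an adjusted p of 0.05 for 4746 genes (39.7%), positive for 2415 (20.2%) and negative for 2331 (19.5%). Of the 1017 genes called for both particles, which are 19.9% of the calls with the doped and 67.9% of those with the undoped particle, 899 went in opposite directions and 118 in the same one. Of the 899, 580 rose with Li-doped and fell with undoped Ag2S NPs. Across the 11952 genes Pearson's r between the dose effects was -0.36, a description over genes that are not independent.

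**Figure D4:**
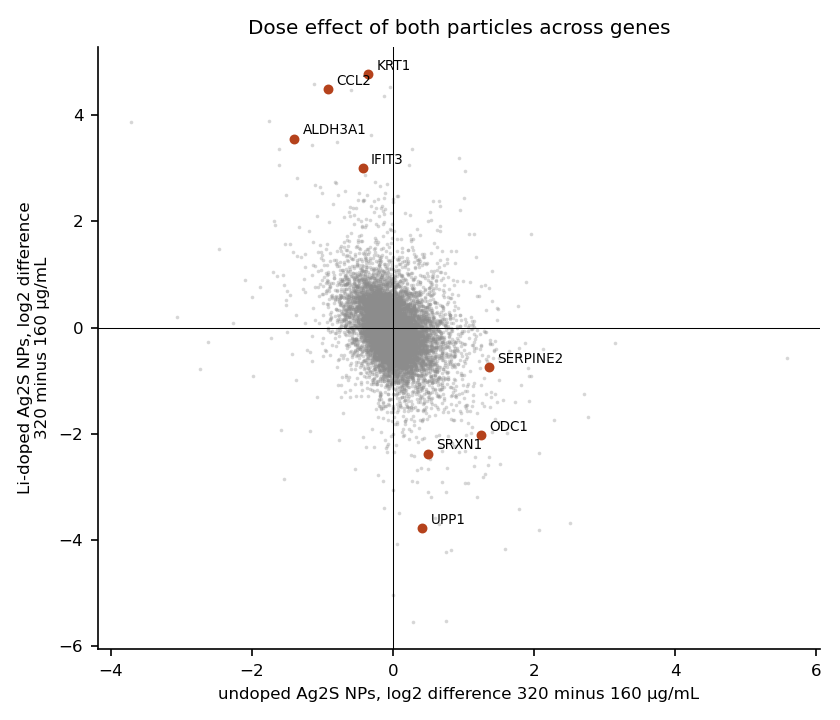
Log2 difference between 320 and 160 μg/mL with undoped Ag2S NPs (horizontal axis) and with Li-doped Ag2S NPs (vertical axis) for each of the 11952 genes tested, with 8 genes of the test of the difference in red. The cloud slopes downward (r = -0.36), and the vertical spread exceeds the horizontal one.

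Mitosis genes rose in 19 and fell in none of 39 with Li-doped Ag2S NPs, and rose in none and fell in 34 with undoped Ag2S NPs, with medians of 0.31 and -0.65. For 35 of the 39 the difference passed the test. Of all genes, 4.84% were higher and 7.68% lower with the undoped dose. The difference passed for 39.7% of all genes (20.2% positive, 19.5% negative). List counts of this paragraph for the undoped particle and for the difference are to be read beside these shares. Cholesterol genes had medians of 0.54 and -0.57, with 18 falling and none rising for the undoped particle, and histones 0.94 and -0.85, with 12 falling. Of the interferon-stimulated genes 21 fell and 2 rose with undoped Ag2S NPs (median -0.36). The unfolded protein response had 12 higher and none lower with undoped Ag2S NPs (median 0.34). The difference was negative for all 23 genes and passed the test for 20 of them. TGF-β targets had 16 higher and 1 lower (median 0.40), and the study's matrix genes 11 and 1. ATF4 targets had no common direction with the undoped dose, 5 higher and 6 lower of 34 with a median of 0.08. Of the 15 collagen chains 5 rose and none fell with undoped Ag2S NPs. The difference passed the test for 3 of the 15, a smaller share than the 39.7% of all genes.

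**Figure D5:**
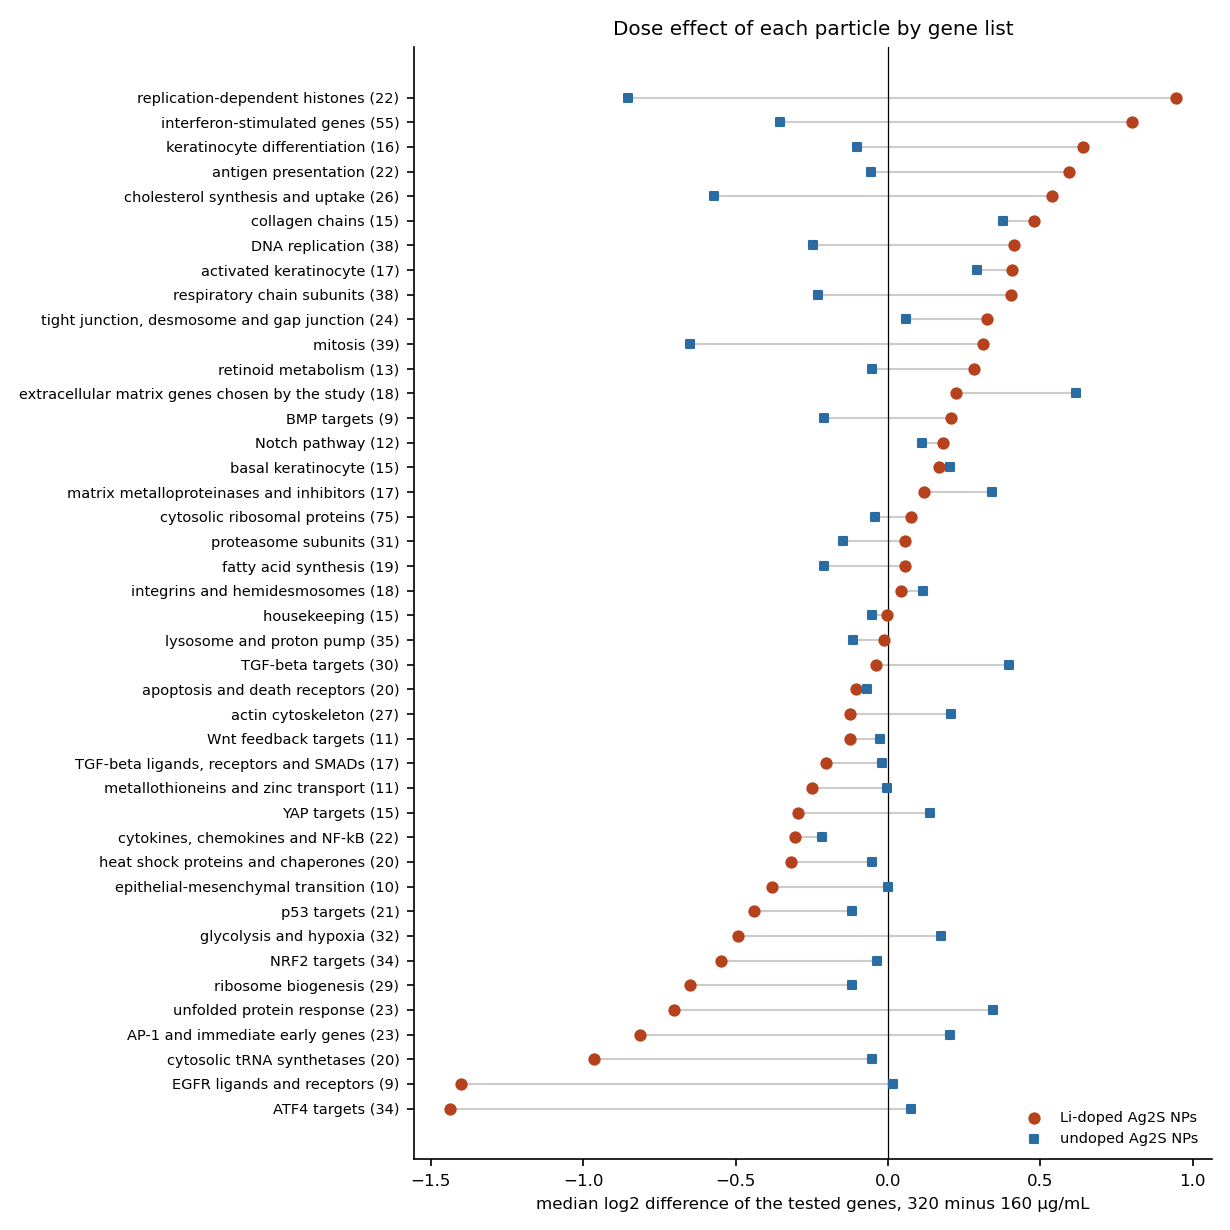
Median log2 difference between 320 and 160 μg/mL over the tested genes of each list (number in brackets) for Li-doped (circles) and undoped (squares) Ag2S NPs, joined by grey lines. Mitosis is at 0.31 and -0.65, ATF4 targets at -1.44 and 0.08, and collagen chains lie to the right of 0 for both.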

How the data were processed

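RNA of HaCaT cells was sequenced in paired reads of 150 bases from a kit not stated to keep strand. The submitters' processing notes name TopHat, Cufflinks 2.1.1 and Cuffdiff, and the authors ran Cuffdiff correcting for fragment bias and multiply mapped reads. The genome build and other versions: not given in the sources used here. Per gene and library, the deposited tables hold FPKM (fragments scaled by transcript length and by mapped fragments, per the file headers) and the authors' group values, fold changes and p-values, which were not used. The tables do not give counts, so precision comes from the spread of libraries within groups. The fit described below pools this spread over the 5 groups of 3 libraries and moderates it across genes. An SE therefore does not describe the spread of the compared groups alone.

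The 2 gene tables of 9 libraries were joined on gene identifier. The control values they share were identical. A limma 3.58.1 fit of 5 groups (R 4.3.3, trended eBayes, Benjamini-Hochberg) was made on log2(FPKM + 0.1) for genes averaging an FPKM of 1 or more. The members and the lists were chosen with earlier results of these data known. Named genes are the 15 largest rises and falls (adjusted p under 0.05, mean FPKM from 5 up in the group that was higher, no overlap), up to 4 members per list by p, TGFB1, TIMP1, COL1A1, TGM2, the study's matrix genes, and 5 per direction from the test of the difference. A few genes that this rule names are not reported here. CHAC1, ATF4, ATF5, FTH1, FTL, TKT, MT2A, MT1G, EGFR, ERBB3, JUNB, CXCL8, CDKN1A, KRT14, KRT16, KRT17, ID1 and the fallen members of the list for epithelial-mesenchymal transition were chosen after their values were seen. The fit was tested on simulated data: of 50 genes changed for this comparison by each of 4 amounts, it called 49 at -2, 37 at -1, 39 at 1 and 49 at 2 (log2), and 10 of 11752 unchanged genes. The simulated noise was independent between genes, with the same spread per gene in all libraries. Far fewer genes were changed in the simulation than were called in the data. False calls from shifts shared by the genes of a library, or from technical replicates, were thus not covered. Coordinates of genes are those of GENCODE release 29 (GRCh38), where all 17214 identifiers occur.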

Additional observations from a re-analysis of the deposited data

Results flagged for a closer look

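Effects of dose that differed between Li-doped and undoped Ag2S NPs, by the test of the difference itself over 4 groups of 3 libraries in limma, are given for 4 of the 5 genes in each direction with the smallest p. The difference (Li-doped minus undoped, log2 scale) was negative for UPP1 (-4.20, SE 0.15, adjusted p = 2.23e-11), ODC1 (-3.27, SE 0.10, adjusted p = 4.09e-12), SRXN1 (-2.87, SE 0.08, adjusted p = 3.12e-12) and SERPINE2 (-2.11, SE 0.08, adjusted p = 6.32e-11). These 4 genes fell with the dose of Li-doped Ag2S NPs and rose with that of undoped Ag2S NPs. For SERPINE2 the dose effects were -0.75 and 1.36, and for ODC1 -2.03 and 1.24.

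The difference was positive for CCL2 (5.42, SE 0.12, adjusted p = 2.87e-13), KRT1 (5.12, SE 0.15, adjusted p = 3.12e-12), ALDH3A1 (4.96, SE 0.18, adjusted p = 2.23e-11) and IFIT3 (3.44, SE 0.12, adjusted p = 2.23e-11). These rose with the dose of Li-doped Ag2S NPs and fell with that of undoped Ag2S NPs, where the log2 differences were -0.92, -0.35, -1.40 and -0.43. All 8 had no overlap between the 2 doses of Li-doped Ag2S NPs, as had 49.5% of all genes. The test that chose the 8 contains this same dose difference, so their lack of overlap adds no separate evidence. Of 141 genes given with values in the text the difference passed the test in 133, against 39.7% of all genes, though most were chosen for their change with the doped particle.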

How the results depend on the processing

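The numbers of genes changed with the dose of Li-doped Ag2S NPs, the number with a difference between the particles, the list counts for the doped particle and the named genes were recomputed with a pseudocount of 1 or 0.01, with no filter, with a minimum mean FPKM of 5, after scaling by median ratio, with the compared groups alone, in a robust fit, with library weights, and without each of the 6 libraries. The counts for undoped Ag2S NPs, of genes shared by the particles, of genes with no overlap and of motifs were not recomputed. The number of genes changed kept within 1.5 times of 5121 under all of these. The number changed by more than 2-fold, 861 in all, was 569 with a pseudocount of 1 (255 of them higher) and 494 with that minimum of 5 (229 of them lower), and 805 were lower with no filter. By construction these settings shrink the log2 differences of genes of low FPKM, or remove or add such genes. How much of the change in these numbers comes from such genes was not tested. Leaving out 1 library in turn gave 4401 to 5006 genes changed, 789 to 920 by more than 2-fold, and 4255 to 4749 with a difference between the particles. Scaling gave 2704 higher and 2373 lower. No paired analysis was possible because the groups share no replicate numbers.

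Of 1942 recomputed values of 141 named genes 1928 kept direction and side of the threshold, 5 lost the call, 9 gained it and 0 reversed. The 5 were of LUM, with a pseudocount of 1 (adjusted p = 0.159 in limma) and without replicate 10, 12, 13 or 15 (0.0547 to 0.0685). Those that gained were of TGFB1 (without replicate 11, 0.0129), ID1 (without replicate 10, 0.043), MT2A (without replicate 12, -0.41 in place of -0.25, 0.00253, and with weights), JUNB (without replicate 12 or 14, with weights or scaling) and MT1G (with weights). The cause was not tested. The split of the cytosolic ribosomal proteins (3 higher, 2 lower) turned without replicate 15 (1 and 5), without replicate 12 (1 and 7) and with library weights (2 and 15). That of lysosome genes turned with the compared groups alone and that of the Notch list with no filter. Low genes such as ASPG and LUM are limited by an unknown depth.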
